A study of Oryza sativa Japonica Group with 9 samples.

Results

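On a rice expression array, 6 probe sets had signals that stepped down from the egg cell to the fertilized egg cell and again to the zygote, with no overlap between stages. They were chosen by their measured signals, after 3 RAB21 and RAB16B probe sets had been left out. A probe set was taken when all 3 egg cell arrays read 500 or more, when the lowest egg cell array was at least 1.3 times the highest array at about 1 h after pollination (hap), and when the lowest array at about 1 hap was at least 1.3 times the highest at about 3 hap. Of 57191 rice probe sets, 11252 read 500 or more on all egg cell arrays, 705 of these (6.27%) met the first ratio, 298 (2.65%) met the second, and 6 (0.0105% of all rice probe sets) met both. The platform annotation pairs 5 of the 6 with 1 gene each, and 2 of those genes carry an informative name, the serine acetyltransferase gene SAT2 and the aquaporin gene TIP4-1. The others were LOC4343334, LOC4334703, LOC4342148 and a probe set that has no gene in that annotation, called the unannotated probe set below. Because these signals selected the members, the falls below are a description.

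An egg cell carries messenger RNA made before fertilization, and the early zygote lives on this maternal store while its own genome starts to be transcribed. Maternal transcripts are cleared over the same period, some by regulated decay. Arrays of whole cells measure the amount of RNA present, relative to the other RNA of the sample, and not its rate of synthesis or decay.

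The 3 stages were unfertilized egg cells taken at anthesis (0 hap), fertilized egg cells pollinated in vivo and taken at 1 to 1.5 hap, and zygotes taken at 2.5 to 3 hap, which spans cell fusion and nuclear fusion. All came from wild-type greenhouse plants of Oryza sativa ssp. japonica, cultivar Katy, and each stage had 3 samples of about 100 cells removed from the ovule without enzymes. The titles call the samples biological replicates, but no label says that they came from separate plants, so p-values measure the spread between these samples, which may be technical. One label field names seedlings, pollen and sperm cells for the same samples, and the groups here follow the titles, the stage entries and the series text. RNA was amplified in 2 cycles before hybridization, and the deposited signals had been scaled to a trimmed mean of about 500.1 on each array. A signal is therefore relative to the other RNA of its sample and does not give RNA per cell. In pooled cells, fewer cells holding a transcript and less of it in each cell cannot be told apart.

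SAT2 encodes a serine acetyltransferase, an enzyme that makes O-acetylserine, the precursor of cysteine. Its signals were 3022, 2989 and 2852 in egg cells, 2019, 1909 and 2181 at about 1 hap, and 1077, 1068 and 1398 at about 3 hap. SAT2 had the tightest egg cell replicates of the 6 but also the shallowest fall. The means were 2955 ± 90.2, 2036 ± 137 and 1181 ± 188 (SD, n = 3 per stage), so that 40.0% of the egg cell mean was left at about 3 hap. SAT2 lay closest to the rule's limit, with a smaller stage ratio of 1.31.

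TIP4-1 encodes a tonoplast intrinsic protein, a channel of the vacuole membrane that passes water and small solutes. Its signals were 1793, 3261 and 1583 in egg cells, 762, 775 and 937 at about 1 hap, and 522, 26.3 and 470 at about 3 hap. The second egg cell sample stood above the other 2 and the second zygote sample far below the other 2, so the depth of the fall differed between samples although the stages did not overlap. The means were 2212 ± 914, 824 ± 97.5 and 339 ± 272 (SD, n = 3 per stage).

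LOC4343334, for which the annotation gives no descriptive name, was the brightest member. Its signals were 5341, 4921 and 6087 in egg cells, 3010, 2576 and 2246 at about 1 hap, and 898, 1174 and 851 at about 3 hap. Every zygote sample was below every fertilized egg cell sample by at least 1.91-fold. The means were 5450 ± 591, 2610 ± 383 and 974 ± 175 (SD, n = 3 per stage).

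LOC4334703 dropped mostly in the first interval. Its signals were 2258, 1738 and 2214 in egg cells, 679, 535 and 584 at about 1 hap, and 286, 256 and 367 at about 3 hap. The lowest egg cell sample was 2.56 times the highest sample at about 1 hap, against 1.46 for the second step. The means were 2070 ± 289, 599 ± 73.3 and 303 ± 57.4 (SD, n = 3 per stage).

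LOC4342148 showed the opposite balance on a ratio scale. Its signals were 2027, 1238 and 1164 in egg cells, 518, 777 and 727 at about 1 hap, and 242, 18.3 and 13.1 at about 3 hap. The first zygote sample kept a clear signal, while the other two read close to the dim end of the array. The means were 1476 ± 478, 674 ± 137 and 91.2 ± 131 (SD, n = 3 per stage), and the zygote SD exceeded its mean.

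The unannotated probe set fell furthest. Its signals were 2019, 2117 and 2193 in egg cells, 469, 244 and 328 at about 1 hap, and 43.8, 13.1 and 112 at about 3 hap. The means were 2110 ± 86.8, 347 ± 113 and 56.3 ± 50.6 (SD, n = 3 per stage). Only this member passed both steps by more than 2-fold, with ratios of 4.31 and 2.18.

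**Figure D1:**
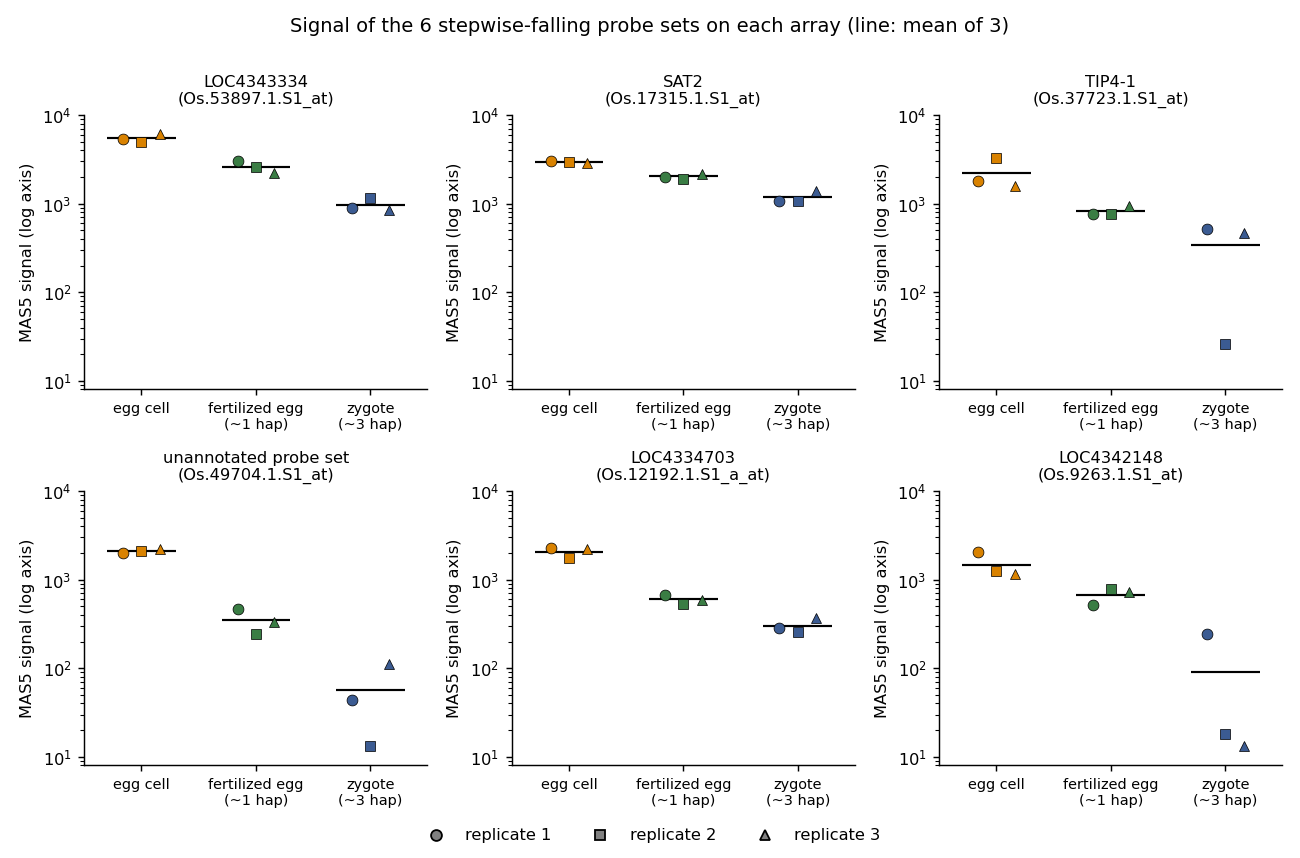
Deposited signal (log axis) of each of the 6 members in the 9 arrays, with egg cells, fertilized egg cells (about 1 hap) and zygotes (about 3 hap) from left to right, points for samples (1 marker shape per replicate number) and bars for stage means. The stages do not overlap in any panel, which the selection rule requires, and the widest zygote spread relative to the mean is in LOC4342148 and the unannotated probe set.

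Among the 6 members, the mean at about 1 hap was 16.4% to 68.9% of the egg cell mean, with a median of 41.5%, and the mean at about 3 hap was 2.67% to 40.0%. In signal units the first interval took 51.8% to 85.8% of the whole drop. As a ratio of means, 2 members fell more in the first interval and 4 more in the second. The egg cell coefficient of variation was 3.05% to 41.3% and the zygote one was 15.9% to 143%.

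**Figure D2:**
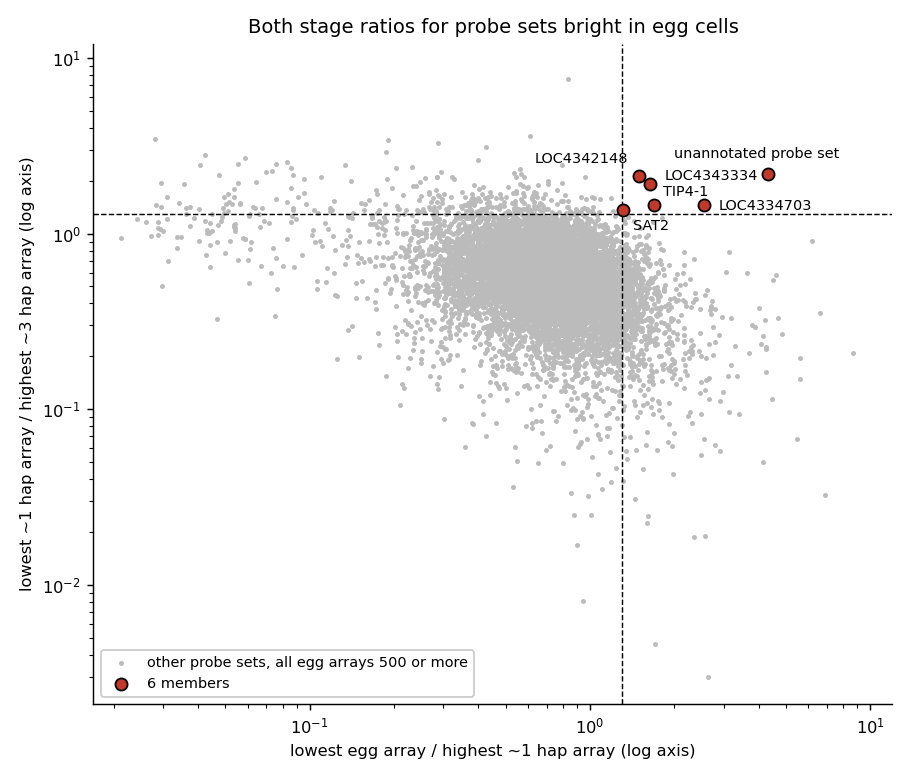
Each point is 1 of the 11252 probe sets that read 500 or more on all egg cell arrays, with the lowest egg cell array over the highest array at about 1 hap on the x axis and the lowest array at about 1 hap over the highest at about 3 hap on the y axis (both log axes). Dashed lines mark the ratio of 1.3, and the 6 members are the points above and to the right of both.

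Just inside the limit stood SAT2 at a smaller stage ratio of 1.31, LOC4334703 at 1.46, TIP4-1 at 1.46, LOC4342148 at 1.50 and LOC4343334 at 1.63. Just outside stood LOC4327707 at 1.24, LOC4348521 at 1.23, LOC4336013 at 1.204, and a pair of probe sets with no paired gene at 1.225 and 1.2005. With no margin at all, 56 probe sets (0.0979%) kept the strict stage order, the 6 members and 50 others.

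Of those 50, 42 pair with 1 gene and 9 carry an informative name, among them CYCL1-1, a cyclin gene of the L type, and PDIL2-3, a protein disulfide isomerase-like gene. CYCL1-1 averaged 4144 in egg cells, 2524 at about 1 hap and 1441 at about 3 hap. PDIL2-3 averaged 3634, 2410 and 866 at the same stages. APG8B, an autophagy gene, averaged 8651, 5911 and 3587, and PRXIIF, a peroxiredoxin gene, averaged 6164, 5119 and 3829. The remaining named genes were KIN17, OsC3H15, ARF1, OsC3H59 and OsPP2C47. The same rule turned round, for signals that rise stepwise and read 500 or more in all zygotes, found 1 probe set, LOC4339981, with signals of 1047, 804 and 1310 in egg cells, 2083, 1962 and 2037 at about 1 hap, and 3002, 8705 and 3444 at about 3 hap.

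A linear model over all 9 arrays (limma on log2 of the signal plus 15, 28597 probe sets above the median log2 signal, Benjamini-Hochberg adjustment over all of them, threshold 0.05) placed the members against the background. The members' p-values come from the signals that chose them and are a description. The contrast of zygote minus egg called 20 probe sets, all lower (0.0699%), of which 4 were members. The unannotated probe set changed by -5.16 ± 0.55 on the log2 scale (SE, limma adjusted p = 0.00841) and LOC4343334 by -2.47 ± 0.28 (limma adjusted p = 0.00945). LOC4334703 changed by -2.72 ± 0.34 (limma adjusted p = 0.0151) and LOC4342148 by -4.54 ± 0.72 (limma adjusted p = 0.0483). SAT2, at -1.32 ± 0.27, and TIP4-1, at -3.26 ± 0.78, were not called (limma adjusted p = 0.142 and 0.172). Without the second zygote array TIP4-1 changed by -2.05 (limma adjusted p = 0.105), and with the spike ratio as a covariate LOC4342148 changed by -6.86 (limma adjusted p = 0.0445).

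The single steps were less clear. Fertilized egg minus egg called 12 probe sets (0.042%), 11 of them lower (0.0385%), and no member, while 3 members passed an unadjusted p of 0.05 in the lower direction, as did 4.39% of all probe sets. Zygote minus fertilized egg called 0 probe sets (0%) in limma, with 3018 at an unadjusted p under 0.05, and 0 with array quality weights, with 3059 unadjusted. All 6 members passed the unadjusted threshold as lower in that step, against 5.51% of all probe sets. The F test over the 3 stages called 18 probe sets (0.0629%), 3 of them members. Of these 3, 0 were called without any 1 egg cell array or without the second fertilized egg cell array. The count over all probe sets also moved when 1 array was left out, as given below, so this loss is no result about the members.

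The median log2 change of the 6 members was -1.21 for fertilized egg minus egg, -1.67 for zygote minus fertilized egg and -2.99 for zygote minus egg. Over all 28597 probe sets these medians were 0.06, 0.02 and 0.05. The calls rested on few samples. Without any 1 of the egg cell arrays, 0 of the 6 members were called for zygote minus egg. Without the first zygote array all 6 were, in a fit that called 830 probe sets, 439 of them lower (1.54%). Over all probe sets, the fits without 1 array called from 0 to 830, so these member counts are no result about the members. LOC4342148 also lost its call without any 1 of the fertilized egg cell arrays or without zygote array 2 or 3. With array quality weights, zygote minus egg called all 6 members, against 1.17% of all probe sets called lower, and fertilized egg minus egg called 3, against 2.37%. Other settings ended calls. For zygote minus egg, 2 members (LOC4343334 and the unannotated probe set) were called after quantile normalization, against 0.0315% of all probe sets, and 1 (LOC4342148) with the spike ratio as a covariate, against 0.147%. With no trend in the variance model 0 members and 0 probe sets (0%) were called by limma, with 4329 at an unadjusted p under 0.05, and on the 6 egg cell and zygote arrays alone 2 probe sets were called, with 0 members.

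By rank within each array, which does not depend on its scale, the members lay between percentiles 85.5 and 97.1 of their array in egg cells, 71.8 and 93.6 at about 1 hap, and 2.50 and 88.1 at about 3 hap. The strict stage order held by rank in all 6. In the second zygote sample, 4 of the 6 had their lowest signal and 3 lay below the array median, against 1 below the median in each of the other zygote samples. After quantile normalization of the same signals, 5 of the 6 still met the rule and SAT2 did not. That scaling moved the median zygote minus egg change of all probe sets to -0.21 and that of the members to -3.21, with a range of -5.25 to -1.16.

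**Figure D3:**
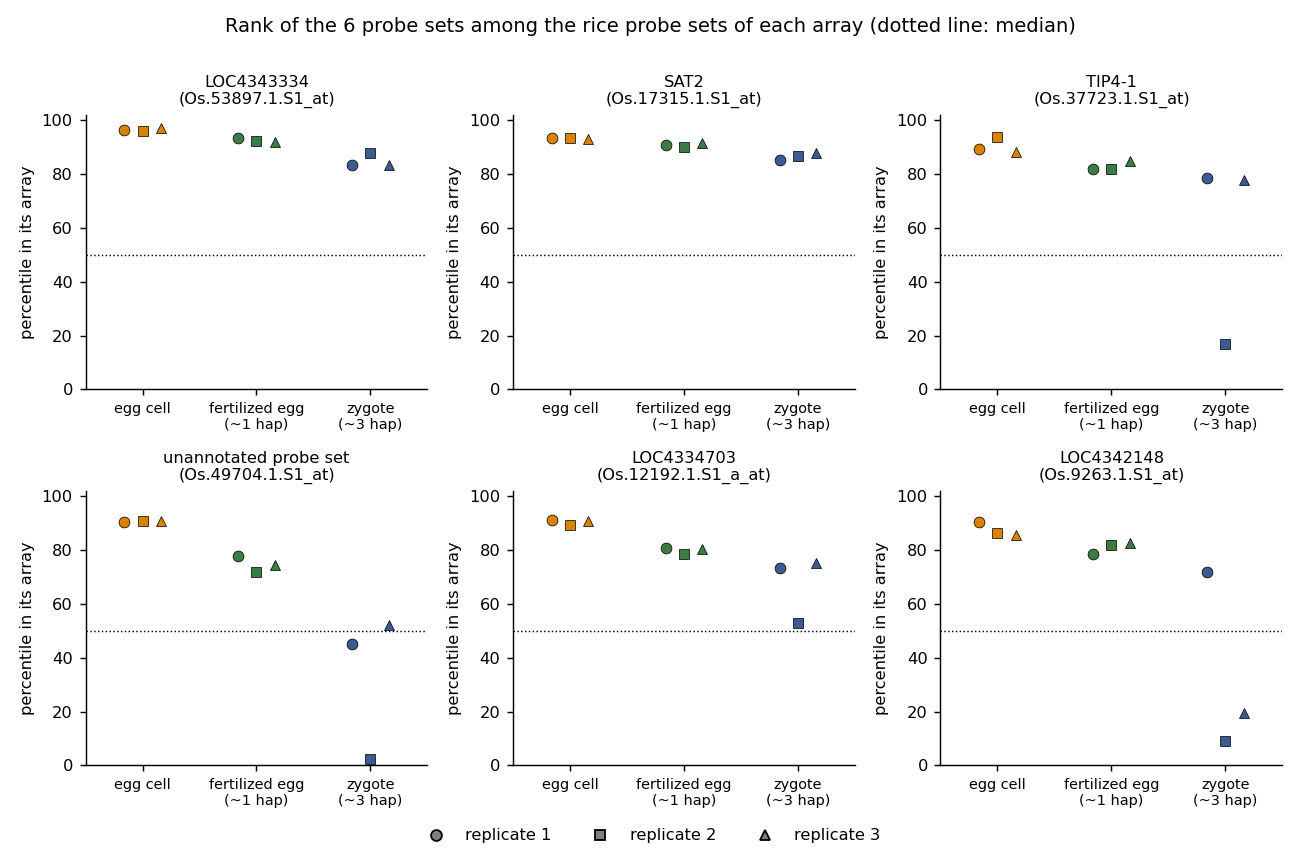
Percentile of each member within each of the 9 arrays, by stage, with egg cells first and zygotes last. The members occupy the upper end in egg cells and spread widely in zygotes, where the lowest is at percentile 2.50.

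Array measures that are not genes of interest moved with stage, and their part in the members' falls was not tested. The signal of the poly-A control probe sets over that of the hybridization control probe sets gave a log2 ratio of -4.37 to -3.26 in egg cells, -1.93 to -0.41 at about 1 hap and -1.996 to 0.43 at about 3 hap. The median signal was 36.5 to 50.9 in egg cells, 47.3 to 95.4 at about 1 hap and 54.0 to 218 at about 3 hap. The 18S ribosomal RNA signal was 14666 to 24657, 2571 to 4829 and 1886 to 8275 at the same stages. The log2 ratio of 3' to 5' control probe sets was 5.996 to 6.46 in egg cells, 6.32 to 8.62 at about 1 hap and 5.93 to 8.15 at about 3 hap. The hybridization control signal was 2894 to 4431, 4193 to 23945 and 10504 to 117618 at the same stages. The second zygote array, where 4 members were lowest, had the highest hybridization control and median signals of the 9 arrays, a 3' to 5' ratio of 8.15 and the lowest array quality weight, 0.18.

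The array carries a second probe set for 3 of the 5 genes, and 0 of the 3 kept the stage order. The second TIP4-1 probe set read 73.3, 66.02 and 83.8 in egg cells, 214, 123 and 429 at about 1 hap, and 6.71, 505 and 134 at about 3 hap. All its egg cell arrays lay below all arrays at about 1 hap, opposite to the member probe set. Its zygote arrays overlapped both earlier stages. The second LOC4342148 probe set read 2179, 1379 and 1552 in egg cells, 1227, 2081 and 1692 at about 1 hap, and 1121, 1914 and 784 at about 3 hap. Its stages overlapped in both steps. The second LOC4334703 probe set read 930, 654 and 947 in egg cells, 1325, 649 and 828 at about 1 hap, and 504, 710 and 1108 at about 3 hap. Zygote minus egg was 0.42 ± 0.96 for TIP4-1, -0.48 ± 0.38 for LOC4342148 and -0.17 ± 0.41 for LOC4334703 on the log2 scale in these second probe sets (SE, limma adjusted p = 0.847, 0.531 and 0.851). The fall of these 3 genes therefore rests on 1 probe set each, and which transcripts each probe set detects was not examined. SAT2 and LOC4343334 have no second probe set paired with them alone.

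**Figure D4:**
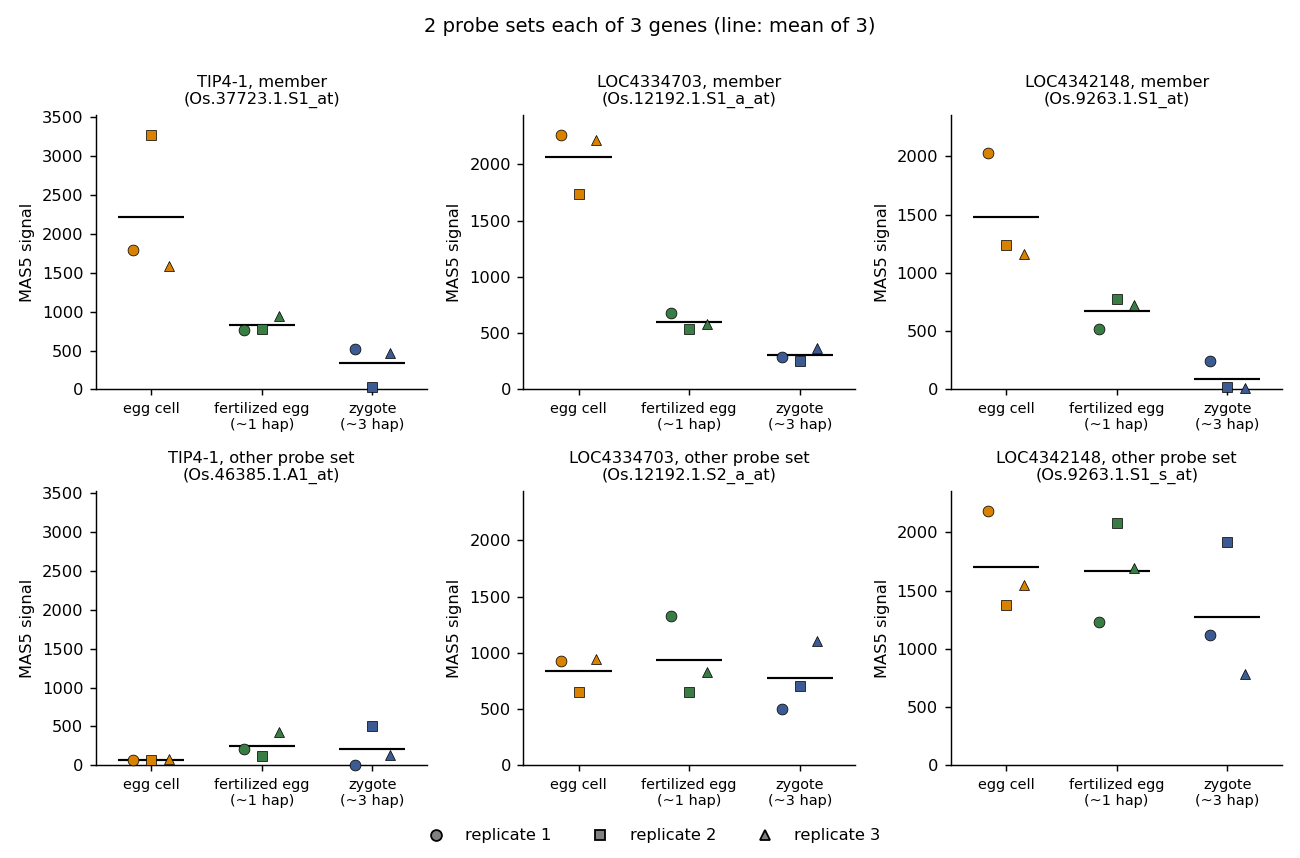
Deposited signal (linear axis, from 0) of the member probe set and of the second probe set of TIP4-1, LOC4334703 and LOC4342148 in the 9 arrays, by stage from egg cells to zygotes, with bars for stage means and 1 marker shape per replicate number. The member probe sets separate the stages and the second probe sets do not keep the falling order. The second TIP4-1 probe set is lower in egg cells than at about 1 hap, without overlap, and its other stages overlap.

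The relatives of both named members, taken after their values were seen, are given beside them. The serine acetyltransferase genes had 6 probe sets over 4 genes. SAT1 averaged 12992 ± 1841 in egg cells, 10239 ± 1728 at about 1 hap and 10866 ± 8072 at about 3 hap in 1 probe set, and 2144 ± 436, 478 ± 163 and 490 ± 412 in another. In that second SAT1 probe set all egg cell arrays lay above all arrays at about 1 hap, by at least 3.20-fold, and the zygote arrays overlapped those at about 1 hap. SAT5 averaged 4131 ± 686, 2477 ± 301 and 1924 ± 1143, and SAT4 averaged 2830 ± 2292, 755 ± 110 and 867 ± 597 (SD, n = 3 per stage). Egg cell arrays also lay above all arrays at about 1 hap in this SAT5 probe set, at a ratio of 1.38, and more narrowly in SAT4. SAT2 had 1.31 in that step, so separation in the first step was not particular to SAT2. Another SAT5 probe set was dim, with an egg cell mean of 6.13, and its stages overlapped. Among these 6 probe sets, SAT2 was the one with separated stages in both steps, which the member rule required.

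The tonoplast aquaporin genes had 11 probe sets over 8 genes. TIP1-1 was the brightest, at 16646 ± 5256 in egg cells, 13360 ± 2182 at about 1 hap and 10897 ± 5456 at about 3 hap (SD, n = 3 per stage). TIP2-2 averaged 3174 ± 1416, 2867 ± 150 and 2300 ± 737. The means of TIP4-2 also fell in both steps, at 329 ± 334, 116 ± 28.5 and 65.9 ± 76.8, and its stages overlapped. Its zygote minus egg change was -2.07 ± 0.80 on the log2 scale (SE, limma adjusted p = 0.266). Like TIP4-1, it was highest in the second egg cell sample. TIP2-1 had its highest mean in the middle stage, at 287 ± 53.7 in egg cells, 1823 ± 1811 at about 1 hap and 172 ± 215 at about 3 hap. So did TIP1-2, at 130 ± 41.4, 256 ± 162 and 170 ± 41.7. The TIP3-2 means rose in both steps, at 106 ± 27.5, 188 ± 67.7 and 303 ± 339. The stages of TIP1-2 and TIP3-2 overlapped. TIP4-1 is also on the list of ovule wall and nucellus genes, a tissue that surrounds the egg cell. That list was matched on gene names and takes in every TIP name. Being on it therefore does not place TIP4-1 in that tissue. The summed signal of that list was 50401 to 105564 in egg cells, 54191 to 59341 at about 1 hap and 37396 to 60717 at about 3 hap. The highest egg cell sum was in the second sample, where TIP4-1 was also highest. That sum includes TIP4-1 itself and TIP1-1, which read 22341 there, so the match is partly built in. The part of that tissue in the TIP4-1 fall was not tested.

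The 9 gene lists on pathways of the egg-to-zygote change hold 489 genes and none of the members. That absence was fixed in advance and says nothing of the members' pathways. The lists were matched on gene names, without SAT or TIP names, and the other members carry no informative name. The filter kept 446 of their 496 entries (some genes are on more than 1 list). In fertilized egg minus egg 0 of these were called, with 17 higher and 12 lower under array quality weights. In zygote minus egg 3 were called lower and 0 higher, with 6 higher and 14 lower under array quality weights. Those weights called 569 higher and 679 lower of all 28597 probe sets in fertilized egg minus egg, and 233 higher and 335 lower in zygote minus egg. The 3 lower genes without weights were RAB21, a dehydrin gene, at -5.81 on the log2 scale (limma adjusted p = 0.00841), Rf2, a mitochondrial fertility restorer gene, at -2.46 (limma adjusted p = 0.0346), and PDIL2-3 at -2.07 (limma adjusted p = 0.0483). RAB21 had been left out of the member rule. It averaged 7420 ± 2078 in egg cells, 765 ± 43.7 at about 1 hap and 164 ± 161 at about 3 hap (SD, n = 3 per stage). The ABA and dehydration list (76 genes) held RAB21, the list of protein folding in the endoplasmic reticulum (17 genes) held PDIL2-3, and the mitochondrial list (8 genes) held Rf2. Without weights, no gene was called in the lists of mRNA decay and translational control (8 genes), small RNA pathway (21), ubiquitin, F-box and autophagy (28), redox enzymes (43), signalling kinases (92) or transcription factors (203). The list medians for zygote minus egg lay between -0.40 and 0.21.

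The egg cell label could not be checked closely. Of the egg cell marker names, WOX8 and WOX9 matched genes here, and WOX8 averaged 260 ± 21.8 in egg cells, 235 ± 71.7 at about 1 hap and 394 ± 80.9 at about 3 hap. Neither reached 500 at any stage. Some markers of other cells were present at all stages. Means of 500 or more were reached at each stage by 5 of 14 photosynthetic genes and 2 of 10 genes of the sperm and pollen list. Those 2, MTR1 and MSP1, are anther development genes and do not show sperm or pollen RNA in these samples. Of 11 endosperm genes, 6 reached it in egg cells and 8 at each later stage. The light-harvesting gene CAB2R averaged 14214 ± 3681, 11768 ± 1883 and 7127 ± 5154, and the summed signal of the 14 photosynthetic genes was 15613 to 24757, 16305 to 22237 and 5527 to 17214. Another photosynthetic gene, PETE, was highest in the middle stage, at 2896, 3739 and 2183. The sum of 10 sperm and pollen genes was 4296 to 4751 in egg cells, 6927 to 9068 at about 1 hap and 4121 to 5253 at about 3 hap. MTR1 made up most of it, at 3123, 6451 and 3024, while MSP1 averaged 1141, 1139 and 1040. The sum of 11 endosperm genes was 15201 to 24999, 23073 to 46667 and 16193 to 29003. No gene of the marker lists was called in any contrast without weights. With array quality weights, 1 sperm and pollen gene was called higher and 1 photosynthetic gene lower in fertilized egg minus egg, and 1 photosynthetic gene and, of the ovule wall list, TIP4-1 lower in zygote minus egg. The part of these genes in the members' falls was not tested.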

How the data were processed

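Per the labels' protocols, about 100 cells per sample gave total RNA that was amplified in 2 cycles, labelled with biotin and hybridized to an Affymetrix rice array. The authors deposited linear intensity values. The submitters' processing notes name MAS5, and the trimmed mean of the values (2% off each end) was about 500.1 on every array. No further normalization was applied. Probe sets for spike-ins, other controls and reporters were not used, nor were 3 RAB21 and RAB16B probe sets from the member rule. Tests used limma 3.58.1 in R 4.3.3 (lmFit, eBayes with trend) on log2(signal + 15), 15 being the rounded 25th percentile, on the 28597 probe sets at or above the median of mean log2 signal. All 9 arrays shared one fit, with Benjamini-Hochberg adjustment over all probe sets kept. The pipeline was tested on simulated data. With 3 arrays per stage, the number of arrays limits the precision.

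Genes were named from the platform annotation and a RefSeq gene table. Members and gene lists were chosen with earlier results of these data known. All members with an informative name were named, then the other members and the 5 probe sets nearest each side of the ratio of 1.3. Alternatives covered the offset, the filter, quantile normalization, array weights, no trend, a replicate block, a spike ratio covariate, the arrays used and the rule's limits. Promoter motifs were planned, and promoter sequence was not used here. The replicate numbers did not pair the samples: same-numbered samples of different stages correlated at -0.22 to 0.14 in their deviations from stage means.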

Additional observations from a re-analysis of the deposited data

How the results depend on the processing

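In the rule, a ratio of 1.2 gave 11 members, 1.5 gave 2, 2 gave 1 and 1 (chosen after seeing the data) gave 56, and leaving out 1 array gave 6 to 28. Of 342 alternative values of the members' log2 changes, 295 kept their side of the threshold, 14 passed it and 33 lost it; their sign says nothing of stability, since the rule fixed the order of the stages. Counts of called probe sets moved far more. The F test called 18 and gave 29 with an offset of 60, 30 with no filter, 5 after quantile normalization, 1569 with array weights, 0 with no trend (3631 unadjusted), 6 with the replicate block, 433 with the spike ratio as covariate and 0 to 121 without 1 array. Fertilized egg minus egg called 12 and gave 7 after quantile normalization, 1248 with array weights, 0 with no trend (2224 unadjusted), 491 with the spike covariate, 154 on the 6 arrays compared and 1 to 67 without 1 array. Zygote minus fertilized egg called 0 and gave 167 with the spike covariate and 0 to 6 without 1 array. Zygote minus egg called 20 and gave 13 with an offset of 3.75, 9 after quantile normalization, 568 with array weights, 0 with no trend (4329 unadjusted), 8 with the replicate block (2 of the 6 members among them), 82 with the spike covariate, 2 on the 6 arrays compared and 0 to 830 without 1 array. Among the fits without 1 array, the highest counts for zygote minus egg and for the F test came without the first zygote array, and the highest for fertilized egg minus egg without the second. The replicate numbers did not pair the samples, and 2 of 9 arrays correlated best with their own number. The causes were not tested.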

Other observations

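Leaving out the first zygote array, the rule chose 28 probe sets, the 6 members and 22 others. In 17 of the 22, the signal of the first zygote array lay above all the arrays at about 1 hap, and in 7 it lay within or above the egg cell range. The 22 failed the full rule because of that array, so these counts describe it and test nothing. The named genes among the 22 were NOL, a chlorophyll b reductase gene, and VATP-P1, a vacuolar ATPase subunit gene. NOL read 967, 941 and 1227 in egg cells, 293, 462 and 297 at about 1 hap, and 496, 144 and 201 at about 3 hap. VATP-P1 read 8290, 9157 and 8672 in egg cells, 5762, 5790 and 5172 at about 1 hap, and 5409, 2783 and 3657 at about 3 hap. When any other array was left out, the rule chose between 6 and 15 probe sets, the 6 members always among them by construction.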
